A study of Mus musculus with 8 samples.

Results

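The colony-stimulating factor receptors and ligands were followed in mouse bone marrow-derived macrophages with and without the Mediator kinases Cdk8 and Cdk19. The group holds 8 genes, taken by symbol from the 34432 gene rows of the table: the receptor gene Csf1r and its ligand genes Csf1 and Il34, the alpha chain genes Csf2ra and Il3ra, the beta chain genes Csf2rb and Csf2rb2, and the receptor gene Csf3r. Macrophages are phagocytes, grown here in culture from marrow precursors, and polyadenylated RNA was sequenced from untreated cells on day 7 of differentiation. The 4 control libraries carry VAV-cre, a Cre recombinase driven by Vav sequences that act in the blood lineage. The 4 double knockout libraries carry Cdk8 flox/flox, Vav-iCre and a Cdk19 null allele, so that Cre is shared by both groups. The sources used here do not give the strain, the age, the growth factor in the culture medium, the kind of Cdk19 allele or whether controls carry a floxed allele. Values are normalized read counts, fold changes are double knockout over control, and means are given ± SD with n = 4 libraries per group.

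Csf1r, the receptor tyrosine kinase for macrophage colony-stimulating factor, is the survival and growth receptor of macrophages and binds both Csf1 and Il34. The receptors for GM-CSF and IL-3 instead pair a ligand-specific alpha chain (Csf2ra or Il3ra) with a shared beta chain, Csf2rb, and mice have an additional beta chain, Csf2rb2, that serves IL-3 alone. These chains have no kinase of their own and signal through Jak2 and Stat5. Csf3r, the receptor for G-CSF, is best known from neutrophils and signals mainly through Stat3.

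The libraries held 17856715 to 21353207 reads. Cdk19 stood at 1295 to 1682 in controls and at 342 to 396.1 in double knockouts, whereas Cdk8 stood at 408.4 to 465.8 and at 294.3 to 429.1. A gene total also counts exons outside a floxed part, so the Cdk8 values do not check the deletion. All 14 macrophage markers were measured, and of these 9 rose and 4 fell, beside 22.9% higher and 23.8% lower over all genes tested. Their summed values were 390060 to 423805 (controls) and 387709 to 411239 (double knockouts). The 4 that fell were Lyz2 (160549 ± 7665 to 96662 ± 3387), Adgre1, Itgam and Fcgr1, so the similar sums combine rises and falls. Monocyte markers summed to 3010 to 3508 in controls and 1022 to 1193 in double knockouts, and neutrophil markers to 2255 to 3967 and 745 to 1091, without overlap for either list. Not every monocyte marker fell: Ly6c2 and Plac8 were not called, and Nr4a1 rose. The defining neutrophil marker Ly6g stayed below 10 in every library. The 8 lymphocyte markers summed to at most 5.55 in controls and 20.01 in double knockouts, with none tested, and of 8 dendritic cell markers the 1 tested was not called. The double knockouts formed close pairs: the chi-square per gene was 7.93 between libraries 1 and 2 and 9.01 between 3 and 4, but 18.6 to 25.3 across these pairs. The labels do not say that replicates came from separate animals, so the p-values cover sample-to-sample spread that may be technical only.

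The receptor genes moved in different directions, and the ligand genes did not pass the test. Il3ra and Csf2rb2 were higher in the double knockout, Csf1r and Csf2ra were lower, and Csf2rb, Csf3r and Csf1 were not called. Il34 was too low to be tested. Of the 7 members tested, 2 were therefore higher and 2 lower, where 22.9% of the 11675 genes tested were called higher and 23.8% lower (limma, Benjamini-Hochberg adjusted p under 0.05). In either direction, 4 of 7 members stand beside 46.6% of all genes tested, so the count is near the background. The same members were called by edgeR, which called 46.0% of genes (22.2% higher, 23.8% lower), and by DESeq2, which called 48.6% (23.9% higher, 24.8% lower). The 4 called members were also those whose groups did not overlap, which held for 42.9% of genes (21.2% higher, 21.7% lower). The median log2 fold change of the 7 members was 0.15, beside 0.01 over all genes tested. With each close pair of double knockouts replaced by its mean, the 4 calls held, with adjusted p from 0.000121 for Il3ra to 0.0382 for Csf2rb2.

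**Figure D1:**
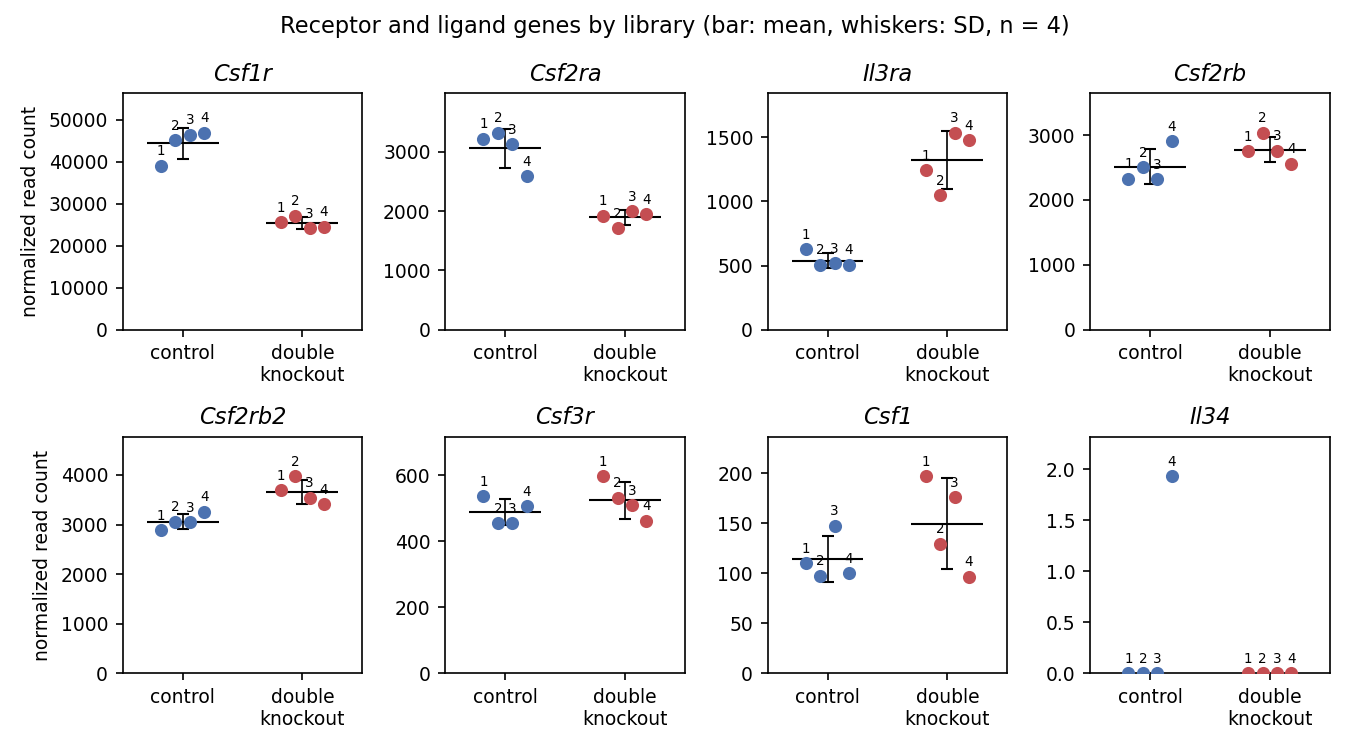
Normalized read counts (vertical axes, each from 0) of the 8 genes in control (blue) and double knockout (red) libraries, with replicate numbers beside the points, horizontal bars for the mean and whiskers for the SD (not drawn for Il34). Csf1r and Csf2ra lie lower and Il3ra and Csf2rb2 higher in every double knockout library than in any control, while Csf2rb, Csf3r and Csf1 overlap between the groups.

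**Figure D2:**
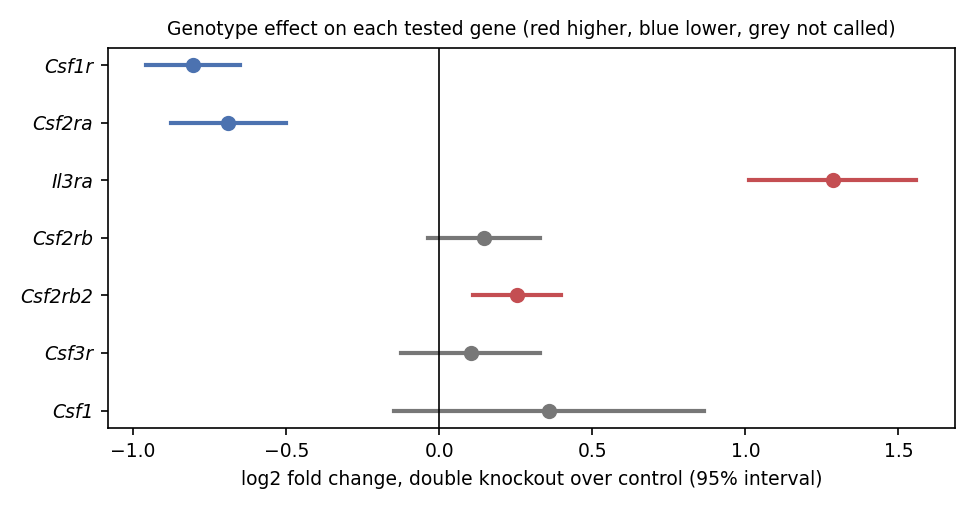
Log2 fold change of the 7 tested genes (horizontal axis) with 95% intervals from limma, coloured by call. The intervals of Csf2rb, Csf3r and Csf1 include 0, and that of Csf1 is the widest of the 7.

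Csf1r, the macrophage growth factor receptor, was the most abundant member and fell in the double knockout. Controls 1 to 4 held 39077, 45171, 46430 and 46903, and double knockouts 1 to 4 held 25603, 27198, 24168 and 24584. Every double knockout library lay below every control, and control 1 was the lowest control. The means were 44395 ± 3620 and 25388 ± 1349, and the double knockout level was 57.2% of the control level. The log2 fold change was -0.80 (SE 0.07, 95% interval -0.96 to -0.65, adjusted p = 2.39e-06). An exact permutation test gave p = 0.0286, the smallest that 4 against 4 can give, two-sided. In bulk RNA, fewer cells of a type and less RNA per cell cannot be told apart. Csf1r (ENSMUSG00000024621) lies on the plus strand of chromosome 18, from 61100598 to 61132149 in mm10. Its 3′ end overlaps Hmgxb3 on the other strand, and 843 of the 4671 windows of 31 bases in its transcript also occur in Hmgxb3 transcripts, on one strand or the other. Hmgxb3 stood at 373.1 ± 65.8 and 335.5 ± 48.6, far below Csf1r in every library.

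Transcripts of the ligands for this receptor were rare or nearly undetected. Csf1, which encodes macrophage colony-stimulating factor itself, stood at 110.1, 97.6, 147.6 and 100.3 in controls 1 to 4. In double knockouts 1 to 4 it stood at 197.1, 129.7, 176.1 and 96.5, so that the double knockouts held both the highest and the lowest value. These rest on 101 to 133 reads per control library and 99 to 203 per double knockout library. The means were 113.9 ± 23.1 and 149.8 ± 45.4, and the log2 fold change of 0.36 (SE 0.23, adjusted p = 0.226, exact permutation p = 0.257) was within the spread between libraries. Its 95% interval ran from -0.15 to 0.87, so these libraries leave its size poorly determined. Il34, the alternative ligand, had 2 reads in control 4 and none in the other 7 libraries. With 0 reads, the depth allows up to 3 reads, which is 0.140 to 0.168 CPM depending on the library and covers counting error only. The values describe transcripts of the macrophages and say nothing about growth factor supplied by the medium. All 9 stromal and endothelial markers, from cells known as sources of Csf1, together summed to 295.8 to 501.6 in controls and 190.0 to 396.1 in double knockouts. Of these, 4 could be tested, 1 rose and 1 was called lower, beside 22.9% higher and 23.8% lower over all genes tested. The lower one was Col1a2, a collagen gene (adjusted p = 0.0450), whose groups overlapped and whose call was lost under 13 of 18 alternatives, edgeR and DESeq2 included. Csf1 lies on chromosome 3 (107741048 to 107760469) and Il34 on chromosome 8 (110741829 to 110805924), both on the minus strand of mm10.

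The alpha chains of the GM-CSF and IL-3 receptors moved in opposite directions. Csf2ra, the alpha chain that binds GM-CSF, held 3225, 3323, 3132 and 2587 across controls 1 to 4. Double knockouts 1 to 4 held 1923, 1712, 1998 and 1953. All double knockouts lay below all controls, with control 4 the nearest to them. The change from 3067 ± 329 to 1896 ± 127 was a fall to 61.8% of the control level (log2 fold change -0.69, SE 0.09, 95% interval -0.88 to -0.50, adjusted p = 4.74e-05, exact permutation p = 0.0286). Il3ra, the alpha chain that binds IL-3, had 629.0, 506.6, 516.0 and 505.3 across the controls, against 1242, 1046, 1534 and 1476 across the double knockouts. The lowest double knockout was above the highest control, and libraries 3 and 4 stood above 1 and 2 within the double knockouts. It rose from 539.2 ± 60.0 to 1325 ± 225, a fitted 2.44-fold (log2 fold change 1.29, SE 0.12, 95% interval 1.01 to 1.56, adjusted p = 6.08e-06, exact permutation p = 0.0286). On the log2 scale this was the largest change, in either direction, among the 7 tested members. Csf2ra lies on the minus strand of chromosome 19 (61223957 to 61228429) and Il3ra on the plus strand of chromosome 14 (14346275 to 14356011). Of the windows of 31 bases, 1.15% in Csf2ra and 0.700% in Il3ra also occur in other genes. Those of Il3ra come from Gm48860, which overlaps it on the other strand.

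Csf2ra fell while Csf2rb2, described below, rose, and the 250 bases before their start sites are shown because they are chains of related receptors with opposite changes. They are RefSeq promoter windows of GRCm38.p6, the assembly of mm10, read 5′ to 3′ on the strand of the gene (chr19:61228419-61228668 for Csf2ra, of which 11 bases lie inside the annotated gene, and chr15:78305722-78305971 for Csf2rb2, minus strand). Capitals mark matches to GAGGAA, a core bound by the myeloid factor PU.1, or to TTNNGNAA, a core bound by C/EBP factors, on either strand. No match of these overlaps a match of the other motif.
Csf2ra: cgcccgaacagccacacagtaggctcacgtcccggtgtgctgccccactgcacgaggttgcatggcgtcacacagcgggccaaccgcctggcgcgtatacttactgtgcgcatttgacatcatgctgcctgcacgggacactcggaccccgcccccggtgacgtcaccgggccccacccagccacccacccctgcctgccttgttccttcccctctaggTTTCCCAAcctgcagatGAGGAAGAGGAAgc
Csf2rb2: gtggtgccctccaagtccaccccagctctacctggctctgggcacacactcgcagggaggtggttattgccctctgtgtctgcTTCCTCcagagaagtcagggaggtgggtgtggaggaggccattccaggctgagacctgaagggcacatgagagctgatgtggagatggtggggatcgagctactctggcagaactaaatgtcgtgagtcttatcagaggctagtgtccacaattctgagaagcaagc
The Csf2ra window holds GAGGAA at positions -14 and -8 and TTTCCCAA, a match to TTNNGNAA on the opposite strand, at -31, counted from the start site. The Csf2rb2 window holds GAGGAA once, at -167 on the opposite strand, and no TTNNGNAA. Windows were found for 5 of the 8 members. Those of Csf1 and Il3ra hold no GAGGAA, that of Csf3r holds 1, and that of Il3ra holds 1 TTNNGNAA. The window of Il3ra lies inside the annotated gene for 220 of its bases and that of Csf3r for 109. Over 32851 RefSeq windows of this length, 23.3% hold GAGGAA and 36.8% hold TTNNGNAA. The matches are letters in a window, and binding was not measured.

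The beta chains changed little, and their values share an uncertainty. Csf2rb2, the beta chain specific to IL-3 in mice, had 2880, 3056, 3045 and 3259 across controls 1 to 4. Double knockouts 1 to 4 had 3689, 3972, 3540 and 3412. The groups did not overlap, but the lowest double knockout stood close to the highest control. Its rise from 3060 ± 156 to 3653 ± 241 was 1.19-fold (log2 fold change 0.25, SE 0.07, 95% interval 0.11 to 0.40, adjusted p = 0.00739, exact permutation p = 0.0286). Csf2rb, the beta chain shared by the receptors for GM-CSF, IL-3 and IL-5, had 2329, 2503, 2319 and 2907 across the controls, against 2751, 3034, 2762 and 2557 across the double knockouts. Control 4 lay among the double knockouts, and the groups overlapped. The means were 2515 ± 275 and 2776 ± 196, and the log2 fold change of 0.15 (SE 0.08, 95% interval -0.04 to 0.33) was not called (adjusted p = 0.171, exact permutation p = 0.171). Without control replicate 4 it was 0.22 and was called (adjusted p = 0.0232). Whether the paralogs differ in their response was not tested.

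Csf2rb and Csf2rb2 lie beside each other on chromosome 15 in opposite orientation, at 78325752 to 78353847 on the plus strand and at 78282507 to 78305721 on the minus strand of mm10. In the GENCODE M21 transcripts of this build, their coding sequences of 2688 and 2634 bases were identical at 95.4% of the aligned bases that are not in gaps, with 122 mismatches. The longest identical run spanned 242 bases, beside read pairs of 150 bases each. Of the windows of 31 bases, 1366 of 4870 in the Csf2rb transcript occur in Csf2rb2 and 1369 of 4710 in the Csf2rb2 transcript occur in Csf2rb. Below is the ungapped stretch of 150 coding bases in which they differ most, with 25 mismatches in capitals, from which reads can be assigned. It spans coding bases 300 to 449 of Csf2rb and 303 to 452 of Csf2rb2.
Csf2rb: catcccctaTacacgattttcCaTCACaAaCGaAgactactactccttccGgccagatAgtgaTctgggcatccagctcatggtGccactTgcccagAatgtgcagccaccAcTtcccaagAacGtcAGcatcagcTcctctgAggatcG
Csf2rb2: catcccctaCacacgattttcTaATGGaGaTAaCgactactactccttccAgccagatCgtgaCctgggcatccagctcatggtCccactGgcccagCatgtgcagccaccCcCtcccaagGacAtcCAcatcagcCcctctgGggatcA
Coding bases 2083 to 2232 contain no difference, so that reads lying within them belong to either gene.
Csf2rb and Csf2rb2: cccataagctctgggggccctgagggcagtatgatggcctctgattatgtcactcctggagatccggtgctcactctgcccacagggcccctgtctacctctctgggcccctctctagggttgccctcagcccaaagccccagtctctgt
Reads from such stretches are divided between the genes by estimate, and the split is less certain than the sum. The sum of both genes was 5209, 5559, 5364 and 6167 across controls 1 to 4, against 6441, 7007, 6302 and 5969 across double knockouts 1 to 4. Control 4 exceeded double knockout 4, so the sums overlapped. Csf2rb2 made up 55.3%, 55.0%, 56.8% and 52.9% of the summed reads in controls, against 57.3%, 56.7%, 56.2% and 57.2% in double knockouts. These shares overlapped between the groups, since control 3 exceeded double knockouts 2 and 3.

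Set against each other per kilobase of transcript, the chains of the GM-CSF and IL-3 receptors stood in other proportions in the double knockout. The level of Il3ra over that of Csf2ra was 0.156, 0.122, 0.132 and 0.156 across controls 1 to 4, against 0.516, 0.488, 0.614 and 0.604 across double knockouts 1 to 4. These ratios follow from the opposite changes of the alpha chains already described and are given without a test. Csf2ra over the summed beta chains went from 1.44 ± 0.238 to 0.772 ± 0.096. Per kilobase of transcript, the GM-CSF alpha chain was above the summed beta chains in each control and below them in each double knockout. This depends on the length used: per kilobase of all annotated exons, Csf2ra in control 4 (901.2) was below the sum of Csf2rb (399.5) and Csf2rb2 (687.6). It also depends on counting Csf2rb2, which serves IL-3 alone. Against Csf2rb, the beta chain of the GM-CSF receptor, Csf2ra stayed higher per kilobase of transcript in both groups. The levels were 1658 ± 178 and 513.2 ± 56.1 in controls, and 1026 ± 68.6 and 566.6 ± 40.1 in double knockouts. Il3ra over the summed beta chains went from 0.203 ± 0.034 to 0.432 ± 0.097. The sum of the alpha chains per kilobase was 1618 to 2016 in controls and 1378 to 1743 in double knockouts and overlapped between the groups. With the length of all annotated exons in place of the transcript length, the ratio of Il3ra to Csf2ra was 0.148 to 0.189 in controls and 0.591 to 0.743 in double knockouts.

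**Figure D3:**
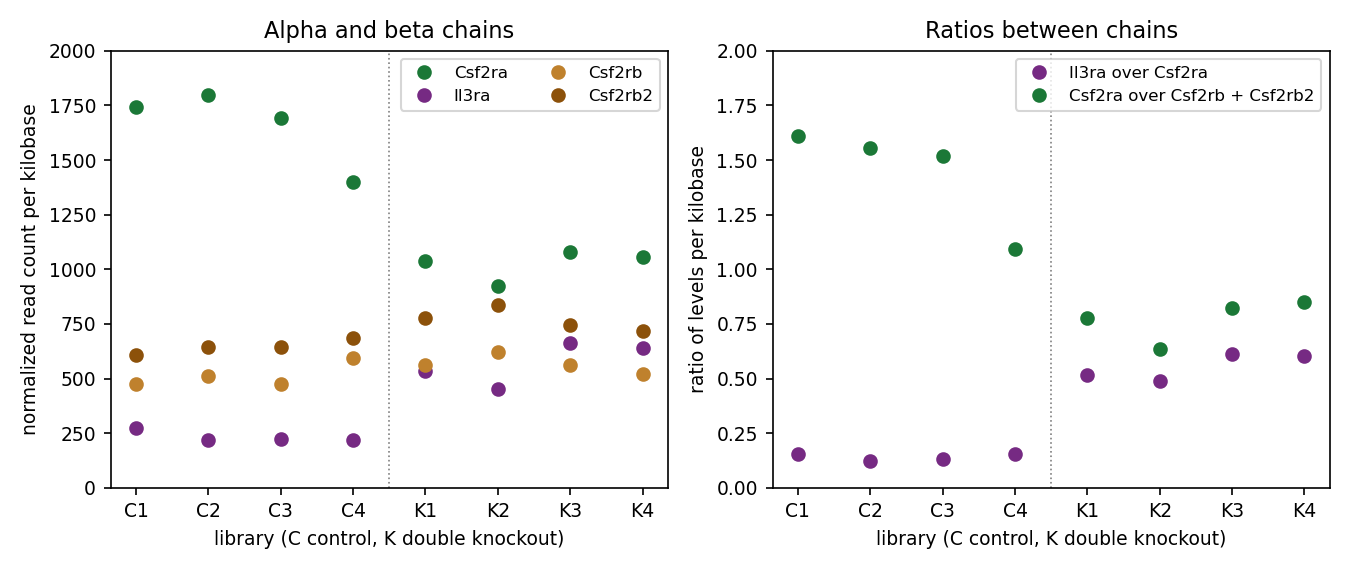
Left, normalized read counts per kilobase of transcript for the alpha chains Csf2ra and Il3ra and the beta chains Csf2rb and Csf2rb2 in each library (C1 to C4 controls, K1 to K4 double knockouts). Right, ratios of these levels, with Il3ra over Csf2ra at 0.122 to 0.156 in controls and 0.488 to 0.614 in double knockouts.

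The cytokines that bind these receptors were not transcribed at a level that the depth could measure. Csf3, Il3 and Il5 had no read in any library, and Csf2, which encodes GM-CSF, had a value of 0.971 in double knockout 1 and 0 in the other libraries. Il5ra, the alpha chain for IL-5, stood at 0.967 in control 2, at 3.001 and 2.92 in double knockouts 3 and 4, and at 0 elsewhere. None of these 5 genes could be tested. Mast cells and basophils, which are known for IL-3 receptors, left little trace: the 10 markers of these cells summed to 21.1 to 81.0 in controls and 12.7 to 57.0 in double knockouts, and Tpsb2 and Cma1 were at 0 in every library. Of 5 eosinophil markers, 3 were tested and 2 of these rose, beside 22.9% called higher over all genes tested. Ccr3, a chemokine receptor, went from 281.9 ± 36.5 to 2428 ± 121 (adjusted p = 7.17e-10) and Prg2, a granule protein, from 2.12 ± 2.42 to 21.9 ± 11.7 (adjusted p = 0.00320). Siglecf stood at 14.3 ± 4.68 and 12.6 ± 3.85 and was not called (adjusted p = 0.796). The eosinophil granule genes Epx and Ear6 were at 0 in every library.

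Csf3r did not pass the test although neutrophil genes fell in the same libraries. Its values were 536.6, 455.3, 455.0 and 506.3 across controls 1 to 4, against 597.1, 532.7, 509.2 and 461.9 across double knockouts 1 to 4. The groups overlapped, with library 1 the highest in each. The means were 488.3 ± 40.2 and 525.2 ± 56.2, and the log2 fold change was 0.10 (SE 0.10, 95% interval -0.12 to 0.33, adjusted p = 0.446, exact permutation p = 0.286). Of 13 neutrophil markers tested, 10 fell and none rose (median log2 change -1.72). The number called lower was 6 under a stricter filter, which tests fewer genes, 8 by edgeR and by DESeq2, and 7 to 10 when 1 library was left out. S100a9, a subunit of calprotectin, fell from 759.0 ± 172 to 139.9 ± 17.7, and Ltf, the lactoferrin of neutrophil granules, from 168.2 to 339.1 across controls down to 32.2 to 48.0 across double knockouts. Csf3r, on the plus strand of chromosome 4 (126024550 to 126044440), shares 728 of 3451 windows of 31 bases (21.1%) with the processed pseudogene AC105061.2, which was not used here. Counting every other gene, 24.5% of its windows are shared, so its value is uncertain to that extent. Of 10 monocyte markers tested, 5 fell and 1 rose (median -1.69). Ccr2, the monocyte chemokine receptor, fell from 1294 ± 21.7 to 83.6 ± 19.4, and Nr4a1 rose from 167.0 ± 17.0 to 377.9 ± 32.2. Ly6c2 (185.5 ± 19.6 and 210.0 ± 20.2) and Plac8 (193.9 ± 68.3 and 219.7 ± 44.7) were not called. Of 5 osteoclast markers tested, cells that also need Csf1r, 1 rose and 2 fell. These marker counts stand beside 22.9% higher and 23.8% lower over all genes tested. The part of these markers in the changes of the receptor genes was not tested.

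Per kilobase of transcript, Csf1r had the highest level in both groups and Csf1 the lowest of the 7 measured genes. In controls the order was Csf1r (9444 ± 770), Csf2ra (1658 ± 178), Csf2rb2 (645.6 ± 32.8), Csf2rb (513.2 ± 56.1), Il3ra (232.9 ± 25.9), Csf3r (140.3 ± 11.6) and Csf1 (27.3 ± 5.53). The ranges of neighbours in this order did not overlap. In double knockouts the order was Csf1r (5401 ± 287), Csf2ra (1026 ± 68.6), Csf2rb2 (770.7 ± 50.8), Il3ra (572.2 ± 97.0), Csf2rb (566.6 ± 40.1), Csf3r (150.9 ± 16.2) and Csf1 (35.9 ± 10.9). Il3ra thus stood level with Csf2rb, and the ranges of these neighbours overlapped, while those of the others did not. The places of Csf2ra and Csf2rb2 in the double knockout were exchanged when the length of all annotated exons was used. Of the summed level per kilobase of the 6 receptor genes, Csf1r made up 71.9% to 76.6% in controls and 61.6% to 65.9% in double knockouts. Il3ra made up 1.68% to 2.35% and 5.15% to 7.95%.

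Genes of the signalling chain below Csf1r changed both ways. Of 22 genes that carry the signal from the receptor, 6 rose and 8 fell (median log2 change -0.11). Gab1, an adaptor that recruits phosphoinositide 3-kinase, rose 2.92-fold from 84.5 ± 8.01 to 248.4 ± 13.9 (adjusted p = 2.34e-06), and Gab2, an adaptor of the same family, rose 1.51-fold. Fgr, a Src family kinase, fell from 75.4 ± 13.1 to 10.3 ± 2.98 (adjusted p = 1.93e-05), and Plcg2, a phospholipase, fell from 3388 ± 437 to 2142 ± 91.2. Of 14 genes that dampen the signal or remove the receptor, 7 fell and 1 rose (median -0.20). The 1 that rose was Cblb, 1.65-fold from 511.6 ± 53.4 to 841.0 ± 59.6 (adjusted p = 9.24e-05). Dok2, a docking protein that restrains tyrosine kinases, fell 1.93-fold from 1756 ± 117 to 908.8 ± 30.9 (adjusted p = 6.07e-07). Adam17, a protease that sheds Csf1r from the cell surface, fell 1.79-fold from 5927 ± 597 to 3304 ± 318 (adjusted p = 9.81e-06). Spred1, an inhibitor of Ras signalling, and Sh2b3, an adaptor that restrains Jak2, fell 1.63-fold and 1.42-fold. Shares of 22.9% higher and 23.8% lower over all genes tested stand beside these counts.

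**Figure D4:**
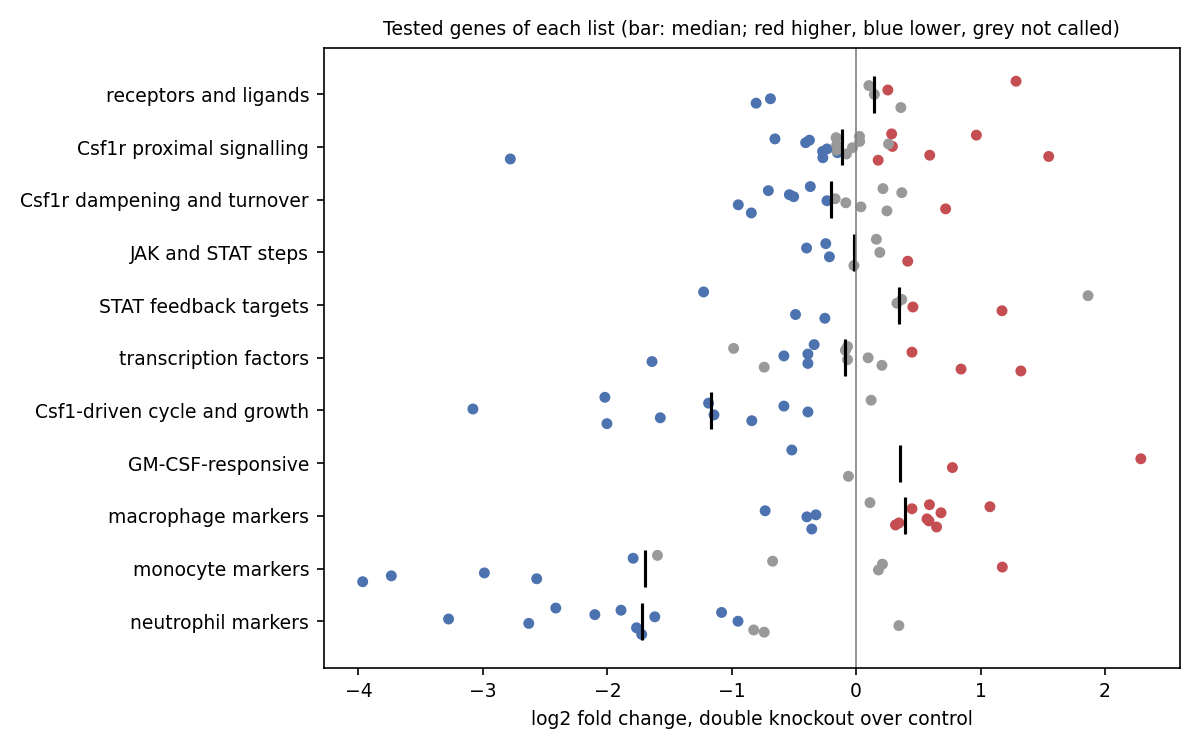
Log2 fold changes (horizontal axis) of the tested genes in 11 lists, one point per gene, coloured by call, with a black bar at each list's median. The Csf1-driven cycle and growth genes, monocyte markers and neutrophil markers have medians of -1.16, -1.69 and -1.72, and the signalling lists lie on both sides of 0.

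Genes of the JAK and STAT steps used by the alpha and beta chains and by Csf3r changed by small amounts. Of 7 measured, 1 rose and 3 fell, beside 22.9% higher and 23.8% lower over all genes tested. Jak2, the kinase bound to the beta chain, rose 1.33-fold from 1193 ± 113 to 1585 ± 25.6 (adjusted p = 0.000845), with all double knockouts above all controls. Stat5a fell 1.32-fold from 405.7 ± 23.3 to 307.4 ± 14.3 (adjusted p = 0.00476). Stat5b fell 1.18-fold (adjusted p = 0.0242). The call on Stat5b was lost with the replicate number as a block (adjusted p = 0.0644), with the double knockout pairs averaged (0.0936) and without controls 2 or 4 or double knockouts 1 or 2 (adjusted p = 0.0540 to 0.0640). Stat3 stood at 2007 ± 179 and 2285 ± 109 (adjusted p = 0.0509, but 0.0420 by DESeq2, 0.0370 after quantile normalization, 0.0479 with a stricter filter and 0.00607 without control 4), Tyk2 at 822.0 ± 47.6 and 919.4 ± 37.4, and Jak1 at 3459 ± 511 and 3393 ± 248.

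Known transcriptional targets of these STAT factors were called in both directions. Of 8 tested, 2 rose and 3 fell (median log2 change 0.35), beside 22.9% higher and 23.8% lower over all genes tested. Osm, the cytokine oncostatin M, rose 2.25-fold from 92.1 ± 9.47 to 208.6 ± 20.1 (adjusted p = 4.74e-05), and Pim1, a survival kinase, 1.37-fold from 526.6 ± 27.6 to 725.2 ± 78.6. Bcl6, a transcriptional repressor, fell from 2943 ± 147 to 2098 ± 65.2, and Bcl2l1, which encodes the survival protein BCL-XL, fell 1.19-fold. Socs3, the feedback inhibitor of Csf3r signalling, fell from 65.8 ± 46.2 to 24.9 ± 8.45 (adjusted p = 0.0314). Control 1 held 134.6 of Socs3 beside 37.7 to 49.2 in the other controls, and the call was lost without control 1 or double knockouts 3 or 4, with the double knockout pairs averaged and with plain limma (adjusted p = 0.0522 to 0.0855). Cish, the feedback gene most closely tied to Stat5, reached at most 7.86 in any library and was not tested.

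Growth genes that Csf1 is known to induce fell. Of 10 tested, 9 fell and none rose (median log2 change -1.16), where 23.8% of all genes tested were called lower and 22.9% higher. Across the 18 alternatives, 7 to 9 were called lower and none higher. Ccnd1, Ccnd3 and Ccnd2, the D-type cyclins of cell cycle entry, fell 4.01-fold, 2.98-fold and 1.79-fold, with Ccnd2 going from 5537 ± 651 to 3080 ± 78.9 (adjusted p = 4.42e-06). Myc, a growth regulator, fell 2.28-fold. Of 13 genes known to rise with GM-CSF in macrophages, 4 could be tested. Mmp12, macrophage elastase, rose 4.88-fold from 1018 ± 86.7 to 4973 ± 367 (adjusted p = 1.19e-09) and Itgax, the integrin CD11c, 1.71-fold from 274.0 ± 44.8 to 465.8 ± 35.2. Pparg, a nuclear receptor induced by GM-CSF in alveolar macrophages, fell 1.43-fold, and Il1b stood at 21.0 ± 6.46 and 20.2 ± 6.60. Ccl17 and Cd209a were at 0 in every library.

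Transcription factors known to act on Csf1r and Csf3r did not share a direction: 3 of 15 tested rose and 5 fell (median -0.09). Over all genes tested, 22.9% were called higher and 23.8% lower. Cebpa, a C/EBP factor of myeloid cells, rose from 2998 ± 223 to 7513 ± 650 (adjusted p = 7.36e-08). Fos, a subunit of AP-1, fell 3.12-fold, and Junb, another subunit, from 2320 ± 68.8 to 1553 ± 99.6. Spi1, which encodes PU.1, fell from 9248 ± 553 to 7312 ± 278 (log2 fold change -0.34, adjusted p = 0.000786).

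Across the 8 libraries, the genes with log2 values most like those of each member were found by Pearson correlation, as a description in which the genotype difference and the libraries themselves are shared. Csf1r was most like Bcl6 (r = 0.998), Pcdh7 and Itga5 (both r = 0.996), and Csf2ra was most like Spi1, Ckb (both r = 0.993) and Uchl1 (r = 0.991). Il3ra was most like Rtcb (r = 0.996), Arf5 (r = 0.995) and Rilpl2 (r = 0.994), and Csf2rb2 was most like Nub1 (r = 0.993), Pcmtd2 (r = 0.987) and Tsc1 (r = 0.985). The members that were not called had looser matches. Csf1 was nearest to Ufm1 (r = 0.962), Parp10 (r = 0.945) and Il18 (r = 0.931), and Csf2rb to Fbxo30 (r = 0.944) and Snx30 (r = 0.943). Csf3r was nearest to Stat2 (r = 0.948), Ccdc130 (r = 0.933) and Ifi209 (r = 0.926). The genes named as nearest to Csf1, Csf2rb and Csf3r were not called either (adjusted p = 0.106 to 0.303).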

How the data were processed

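Poly(A)-selected libraries from 8 macrophage samples gave read pairs of 150 bases, per the labels' protocols. Salmon 1.4.0, DESeq2 and the build mm10 are named in the submitters' processing notes. The sources used here do not give the annotation release, filters or strand. The deposited values are a signal: the authors gave gene reads divided by 1 size factor per library (0.901 to 1.04). Undoing this division gave whole numbers for 100% of values within 0.01, used to state depth and, in alternatives, to fit count models.

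The 11675 genes that reached 10 in 4 or more libraries were fitted by limma 3.58.1 (R 4.3.3) on log2(value + 1) (trend and robust options, genotype as the only term, two-sided). Low genes have their fold changes understated on this scale. P-values were adjusted over all genes tested (Benjamini-Hochberg, threshold 0.05). Exact permutation tests used the 70 regroupings of 4 against 4. The self-test used simulated reads. Alternatives included edgeR 4.0.16, DESeq2 1.42.0, other pseudocounts, filters and normalizations, a replicate block and leaving out each library.

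The members and the 17 further lists were chosen with earlier results of these data known. Named were all members, up to 4 genes with the smallest adjusted p per list, any gene of the cytokine, JAK and STAT and feedback lists, the 3 genes most correlated with each tested member, and Cdk8 and Cdk19. Other genes at 0 or overlapping a member, and Adgre1, Itgam, Fcgr1, Ly6c2, Plac8 and Cblb, were named after their values were seen. So were Arg1, Irf4, Ccl22, Ccl24, Ciita and Zbtb46. Levels per kilobase use the coding transcript with the longest coding sequence in GENCODE M21 (mm10). Promoter windows are RefSeq's. Some genes that this rule would name are not reported here.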

Additional observations from a re-analysis of the deposited data

Results flagged for a closer look

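In 8 of the groups of 4 libraries examined, 1 library lay far from the other 3, by a gap that took up most of the group's range. Chance gives this for about 1 in 20 groups, and 135 groups were examined. Among the members this was Il3ra in control replicate 1, at 629.0 beside 505.3 to 516.0 in the other controls. This library still lay below every double knockout library, and without it the log2 fold change of Il3ra was 1.36. Socs3, the feedback inhibitor, stood at 134.6 in the same control 1 beside 37.7 to 49.2. In double knockout replicate 1, Cd68, a lysosomal glycoprotein, stood at 25633 beside 23764 to 23920, S100a9 at 113.6 beside 145.0 to 150.8, and Col1a1, a collagen gene, at 156.3 beside 35.1 to 54.3. Xcr1, a chemokine receptor of dendritic cells, stood at 30.2 in double knockout replicate 4 beside 48.0 to 51.5. Cdh5, an endothelial cadherin, stood at 126.5 in control replicate 3 beside 13.5 to 19.3 and at 97.5 in double knockout replicate 2 beside 15.6 to 23.3.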

How the results depend on the processing

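Each of the 7 tested members was refitted under 18 alternatives, and each kept its direction in all of them. The calls on Csf1r (log2 -0.97 to -0.78), Csf2ra (-0.77 to -0.64), Il3ra (1.21 to 1.39) and Csf2rb2 (0.21 to 0.29) held throughout, with largest adjusted p of 0.000181, 0.00116, 0.000224 and 0.0382. Quantile normalization gave the -0.97 of Csf1r. Csf1 (0.21 to 0.55, adjusted p at least 0.0540) and Csf3r (0.04 to 0.17) were called under none. Leaving out 1 library at a time gave 0.10 to 0.22 for Csf2rb, which was called without control replicate 4 alone (adjusted p = 0.0232), so that 2 to 3 members were higher and 2 lower. With the replicate number as a block, the values were -0.80 for Csf1r (adjusted p = 0.000154), -0.69 for Csf2ra, 1.29 for Il3ra and 0.25 for Csf2rb2 (adjusted p = 0.0311). Same-numbered libraries do not deviate together (correlations -0.05, 0.03, -0.04 and -0.04), so no pairing by number shows in the values. This cannot exclude that same-numbered samples were handled together. Under the block, with the double knockout pairs averaged, without control 4 and without double knockout 2, 1 rather than 3 genes of the JAK and STAT list was lower. The median log2 fold change of all genes was 0.05 under quantile normalization and 0.01 in the limma fit reported. Jak1 and Il1b, both near 0, changed sign when single libraries were left out (Il1b also under quantile normalization). Csf1 rests on 99 to 203 reads per library, which limits its precision.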
